A study of Mus musculus with 10 samples.

Results

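The 10 acid-base transport genes described here are the proton pump subunit genes Atp6v1g3, Atp6v1b1 and Atp6v0d2, the bicarbonate transporter genes Slc4a1, Slc4a4, Slc4a9 and Slc26a4, the transcription factor gene Foxi1, and the carbonic anhydrase genes Car2 and Car12. They were chosen by name, and the tables of all 10 libraries hold all 10 of them among 28808 genes. Kidney cortex of mice aged 4 weeks, dissociated into single cells and sequenced by Drop-seq, gave 1 library from normal kidneys (the control) and 1 library each from injured kidneys on days 1, 2 and 4. Days 7, 11 and 14 after injury had 2 libraries each. The labels name the injured groups by day alone, and give neither the kind of injury nor the sex, strain, genotype or number of animals behind a library. The series' title places the study in acute kidney injury.

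The 10 libraries held 7091848 to 31632205 counts, read as unique molecular identifiers (UMIs, 1 per captured RNA molecule), and 52797 of 64803 cell barcodes were used. The 2 libraries of day 11 kept the smallest shares, 5409 of 10800 and 5283 of 10711 barcodes, against 6134 of 6745 in the control. Whether this bears on the day 11 changes was not tested. A barcode was called intercalated when it held at least 2 UMIs over 8 intercalated cell markers (Aqp6, Hepacam2, Dmrt2, Hmx2, Spink8, Insrr, Oxgr1 and Slc26a7). It was called proximal when it held at least 15 UMIs over 18 proximal tubule markers such as Lrp2, Slc34a1 and Miox. Barcodes with 5 or more UMIs of the markers of any of 8 other cell types were left out, and no member gene took part in either choice. This gave 535 intercalated barcodes, 33 to 99 per library and 0.514% to 1.61% of those used, and 23846 proximal barcodes, 219 to 4807 per library. Intercalated markers not used for the choice, Tmem213 and Rhbg, stood at 577 to 2376 and 138 to 689 CPM (counts-per-million scaling, of all UMIs of the barcodes) in intercalated barcodes. In proximal barcodes they stood at 11.2 to 27.95 and 1.08 to 7.76 CPM. The proximal choice fell in a smooth stretch: at exactly 15 marker UMIs Slc4a4 stood at 634 CPM, and at 1 UMI fewer at 646. The intercalated choice did not: barcodes with exactly 2 marker UMIs held Atp6v1g3 at 5777 CPM and those with 1 UMI at 1472. Libraries shared at most 4 barcode sequences, 0.0979% of the smaller library.

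Intercalated cells of the collecting duct and connecting tubule move acid or base with a vacuolar proton pump built from many subunits. In type A cells the pump faces the urine and the exchanger Slc4a1 (AE1) returns bicarbonate to the blood. In type B cells Slc26a4 (pendrin) secretes bicarbonate into the urine in exchange for chloride, with Slc4a9 (AE4) on the other side of the cell. Proximal tubule cells reclaim most of the filtered bicarbonate, which leaves them through the cotransporter Slc4a4 (NBCe1). Car2, in the cytosol, and Car12, on the cell surface, interconvert carbon dioxide and bicarbonate. Foxi1 is a forkhead transcription factor that intercalated cells need, and pump subunit and exchanger genes are among its known targets.

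Because Foxi1 is 1 of the members and forkhead proteins bind short AT-rich cores, the 250 bases before the start of the member genes were searched for the letters TGTTTA and TATTTA on both strands. The RefSeq table for build GRCm38.p6 held an entry for 6 of the 10 members (Atp6v1g3, Atp6v1b1, Slc4a4, Slc26a4, Foxi1 and Car12). The pump subunit and exchanger whose intercalated levels are compared below, with a match each, and the pump subunit with none are shown. Capitals mark a match.
Atp6v1b1, chr6:83742767-83743016, plus strand: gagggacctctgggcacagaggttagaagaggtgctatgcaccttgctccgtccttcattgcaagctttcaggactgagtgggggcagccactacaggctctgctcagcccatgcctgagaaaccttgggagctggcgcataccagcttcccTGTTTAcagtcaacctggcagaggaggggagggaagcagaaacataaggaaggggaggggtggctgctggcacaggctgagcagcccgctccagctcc
Slc26a4, chr12:31559985-31560234, minus strand: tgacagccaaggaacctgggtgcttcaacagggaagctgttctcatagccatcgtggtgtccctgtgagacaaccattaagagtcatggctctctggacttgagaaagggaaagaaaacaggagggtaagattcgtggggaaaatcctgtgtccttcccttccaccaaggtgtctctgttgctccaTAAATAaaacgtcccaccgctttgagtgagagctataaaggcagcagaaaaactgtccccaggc
Atp6v1g3, chr1:138273488-138273737, plus strand: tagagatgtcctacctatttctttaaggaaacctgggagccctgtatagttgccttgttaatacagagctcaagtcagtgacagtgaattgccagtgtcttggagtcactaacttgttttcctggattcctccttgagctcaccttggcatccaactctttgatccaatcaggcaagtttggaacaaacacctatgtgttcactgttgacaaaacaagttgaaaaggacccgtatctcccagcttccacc
The Atp6v1b1 window holds TGTTTA with its first base at -98 from the start. The Slc26a4 window holds TATTTA on the other strand (TAAATA as written) at -64. Car12 holds TGTTTA at -11, and the second listed start of Slc4a4 holds TATTTA on the other strand at -169. Foxi1 and the first listed start of Slc4a4 hold neither. Of 32851 RefSeq promoter windows of the same length, 12% hold TGTTTA, 12.7% hold TATTTA and 22.1% hold either, and a match is a description of letters only.

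In the GENCODE annotation of GRCm38 the pump subunit genes lie at chr1:138273738-138289462 (Atp6v1g3), chr6:83742990-83758855 (Atp6v1b1) and chr4:19876841-19922605 (Atp6v0d2). Slc4a1 lies at chr11:102348824-102366203, Slc4a4 at chr5:88886818-89239653 and Slc26a4 at chr12:31519827-31559969. Foxi1 lies at chr11:34204338-34208089, Car2 at chr3:14886273-14900770 and Car12 at chr9:66713686-66766845. None of these 9 overlaps another annotated gene on either strand.

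Which cells held the members was compared first, as intercalated against proximal sums of the same libraries. Slc4a1 and Foxi1 passed the low-count filter only through the intercalated sums (proximal sums held 0 to 13 and 0 to 7 UMIs of them), so no test or difference is given for them. The 8 members that passed it when each class was fitted alone differed by edgeR's quasi-likelihood test with the library as a block (Benjamini-Hochberg adjusted p under 0.05), where 43.9% of 5632 genes did. Of these 8, 7 were higher in intercalated barcodes, against 19.3% of all genes, and Slc4a4 was lower. In this comparison, however, the filter could be passed through 1 class alone. Proximal levels reached at most 2.17 CPM for Slc4a9, 6.16 for Atp6v1b1, 9.32 for Atp6v0d2 and 16.2 for Slc26a4. Median levels were 19.8 CPM for proximal Atp6v1g3 and 55.4 for intercalated Slc4a4. For these members the call was largely set by the filter, so only Car2 and Car12 are read as tested. The log2 difference was 8.46 ± 0.23 (SE) for Atp6v1g3, 7.22 ± 0.23 for Atp6v1b1 and 8.26 ± 0.34 for Atp6v0d2. Among the exchangers it was 7.79 ± 0.30 for Slc26a4 and 8.48 ± 0.35 for Slc4a9. The carbonic anhydrases differed by less, 2.62 ± 0.32 for Car2 and 2.73 ± 0.26 for Car12. Slc4a4 stood at -4.37 ± 0.19. The largest adjusted p of the 8, that of Car2, was 4.4e-07, and intercalated levels were above proximal levels for the 7 members, and below them for Slc4a4, in 10 of 10 libraries.

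The control library gives the level of each member in 7 marker-defined classes. The 6 classes other than the intercalated one leave out barcodes with 2 or more intercalated marker UMIs. Low levels of intercalated genes there are in part set by that choice. The control barcodes left out for holding both principal and intercalated UMIs, 134 of them, are read further below. Slc4a1 stood at 964 CPM in intercalated barcodes (95% Poisson interval 861 to 1074, counting error only) and at 0 to 4.40 CPM in the other 6 classes. Foxi1 stood at 235 CPM there and at 0 to 2.201 CPM elsewhere, and Slc4a9 at 80.3 CPM there and at 0 to 2.201 elsewhere. Atp6v1b1, a pump subunit known also from other distal segments, stood at 473 CPM in intercalated, 181 in principal, 72.6 in thick limb and 63.2 in distal barcodes. Car2 stood at 3233 CPM (3043 to 3431) in intercalated, 2067 (1937 to 2204) in principal, 378 in thick limb and 161 in proximal barcodes. Car12 stood at 574 CPM in intercalated barcodes and at 58.1 in proximal and 53.7 in thick limb barcodes. Slc4a4 stood at 986 CPM in proximal barcodes and at 14.4 to 127 in the others, the highest of these in 29 macrophage barcodes with 5 UMIs of it.

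**Figure D1:**
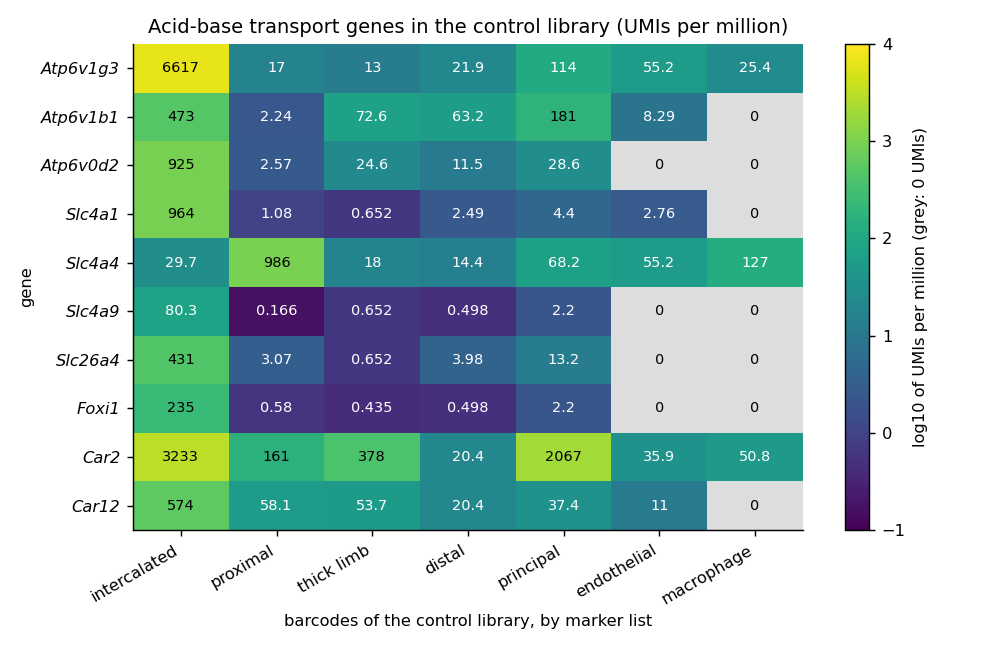
Levels of the 10 members (rows) in 7 marker-defined classes of barcodes (columns) of the control library, in CPM of the class's UMIs, with colour on a log scale. Classes other than the intercalated one leave out barcodes with 2 or more intercalated marker UMIs. Slc4a1, Slc4a9, Slc26a4, Foxi1 and the pump subunits peak in the intercalated column, Car2 is also high in the principal column (2067), and Slc4a4 peaks in the proximal column (986).

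Members seen in barcodes of another class can come from free RNA in the droplets. Barcodes of at least 1000 UMIs were thinned to 1000 and shallower ones were left out, 150 proximal and 51 endothelial barcodes in the control. Atp6v1g3 then had a UMI in 2.09% of 3212 proximal barcodes of the control and in 5.23% of 153 endothelial barcodes, which should lack it. Over all libraries these shares ran from 1.63% to 7.86% in proximal and from 1.59% to 10% in endothelial barcodes. The ranges overlapped, and within libraries the order went both ways. Replicate 1 of day 7 gave 3.98% in proximal and 10% in endothelial barcodes, and replicate 2 gave 3.34% and 1.86%. Whether proximal Atp6v1g3 came from free RNA was not tested. Proximal Slc26a4, Slc4a9, Slc4a1, Foxi1, Atp6v1b1 and Atp6v0d2 were detected in at most 2.49% of thinned proximal barcodes of any library. Slc4a4 had a UMI in 59.7% of thinned proximal control barcodes and in 5.88% of endothelial ones, and Car2 in 17.8% and 4.58%. Median depths before thinning were 2480 UMIs in proximal and 1350.5 in endothelial barcodes of the control.

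The course after injury was then followed in each class. Levels by day are CPM scaled by trimmed mean of M values (TMM), a scaling that sets the bulk of genes equal between libraries. On total UMIs alone, every log2 change of day 7 against control would be higher by 0.71 in intercalated and 0.87 in proximal barcodes, and those of days 11 and 14 by 0.12 to 0.32. Changes are therefore relative to the bulk of genes. The 3 comparisons of a day with the control share its 1 library, which is assumed to vary like the replicated days, and days 1, 2 and 4 have no test. Whether replicate libraries came from separate animals is not in the labels, so the spread between them may be technical. Each gene had 3 residual degrees of freedom of its own. To these edgeR added a median of 48.0 in intercalated and 9.18 in proximal sums from the spread shared over genes. The p-values therefore rest mostly on that shared spread, not on the gene's own replicates.

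Slc4a1 had the largest change of the members in intercalated barcodes. Its intercalated level was 1258 CPM in the control, 103 on day 1, 214 on day 2, 238 on day 4, 70.7 and 67.5 on day 7, 296 and 369.8 on day 11, then 859.8 and 736 on day 14. Every injured library was below the control, days 7 and 11 did not overlap with each other, and day 14 came closest to the control. Day 7 against control gave a log2 change of -4.07 ± 0.36 (SE, n = 2 and 1 libraries, adjusted p = 2.0e-12, edgeR). It was the only call among the 10 members in that comparison, where 8.6% of 3280 genes were called. On day 11 the change was -1.86 ± 0.29 (adjusted p = 1.4e-05), and on day 14 it was -0.63 ± 0.26 (adjusted p = 0.34), which did not pass, although it did with the 2 groups alone (-0.64, adjusted p = 0.020). From day 7 to day 14 Slc4a1 rose by 3.43 ± 0.35 on the log2 scale (adjusted p = 1.2e-10). DESeq2 made the day 7 and day 14 against day 7 calls as well, but not that of day 11. Behind the day 7 levels lie 5 and 9 UMIs, against 324 in the control.

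A level summed over barcodes cannot tell fewer Slc4a1-expressing cells from less Slc4a1 RNA per cell. Barcodes were also counted, but the share with a UMI falls in both cases and cannot tell them apart either. Slc4a1 had a UMI in 69 of 99 intercalated barcodes of the control, 5 of 44 on day 1, 6 of 33 on day 2, 6 of 33 on day 4, 3 of 36 and 6 of 61 on day 7, 10 of 33 and 22 of 66 on day 11, then 45 of 76 and 24 of 54 on day 14. The share was 69.7% in the control (exact binomial 95% interval 59.6% to 78.5%) and 11.4% on day 1 (3.79% to 24.6%). Barcodes of the control were deeper (median 3249 UMIs) than those of the other libraries (1202 to 2271.5). Thinning left out intercalated barcodes under 1000 UMIs, 4 in the control and 9 in each day 7 library. Thinned to 1000 UMIs, the shares were 52.6% in the control, 13.2%, 11.1% and 16.7% on days 1, 2 and 4, and 7.41% and 1.92% on day 7. They were 25% and 25.5% on day 11 and 50% and 32.7% on day 14. Proximal barcodes, which should lack Slc4a1, gave at most 0.498% in any library.

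Aqp6, a water channel of type A cells and 1 of the markers used to choose the barcodes, was also counted in them. It had a UMI in 75 of 99 control barcodes and in 16 of 44, 9 of 33, 12 of 33, 19 of 36, 14 of 61, 12 of 33, 26 of 66, 48 of 76 and 26 of 54 barcodes of the later libraries, in order of day and replicate. These counts were not thinned to 1 depth. Aqp6 itself stood at 1392.5 and 251 CPM of total UMIs in replicates 1 and 2 of day 7. The counts therefore do not give the share of type A cells. Within the Aqp6-positive barcodes alone Slc4a1 stood at 1442 CPM in the control, 120.2 and 259 on day 7, 743 and 844 on day 11, then 1157 and 1317 on day 14. The day 7 change in them was -2.70 ± 0.39 (adjusted p = 1.7e-05) and passed, while that of day 11 was -0.90 (adjusted p = 0.082) and did not. The rise from day 7 to day 14 was 2.49 in them (adjusted p = 6.6e-05).

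Slc4a1 is also a red cell gene, and markers of other cells in the intercalated barcodes varied between libraries. The summed level of 5 erythroid markers (Hba-a1, Hba-a2, Hbb-bs, Hbb-bt and Alas2) was 5.95 CPM in the control, where Slc4a1 was highest, and 8.96 to 1680 CPM in the injured libraries. Of the 5, 1 to 4 were at 0 in each library. The 7 principal cell markers summed to 351 CPM in the control and 382 to 984 CPM in the injured libraries, with their maximum on day 7, and their part in the result was not tested. The share of barcodes with enough intercalated UMIs that were left out for another list also differed, with 191 of 293 in the control and 100 of 148, 213 of 252 and 241 of 277 for days 1, 2 and 4. It was 139 of 176 and 315 of 377 for day 7, 56 of 91 and 46 of 120 for day 11, then 158 of 237 and 144 of 205 for day 14. With other lists under 10 UMIs the Slc4a1 changes were -4.24 on day 7 (adjusted p = 2.0e-10) and -1.73 on day 11 (adjusted p = 2.3e-04). The median share of mitochondrial UMIs in intercalated barcodes was 32.9% in the control and 5.17% and 9.46% on day 7. With at most 25% of them the day 7 change of Slc4a1 was -4.62 (adjusted p = 3.1e-09). Barcodes left out because they held 5 or more principal UMIs beside at least 2 intercalated UMIs, 134 in the control, gave Slc4a1 at 306 CPM in the control, 34.9 and 24.3 CPM on day 7 and 111.7 and 98.7 CPM on day 14.

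**Figure D2:**
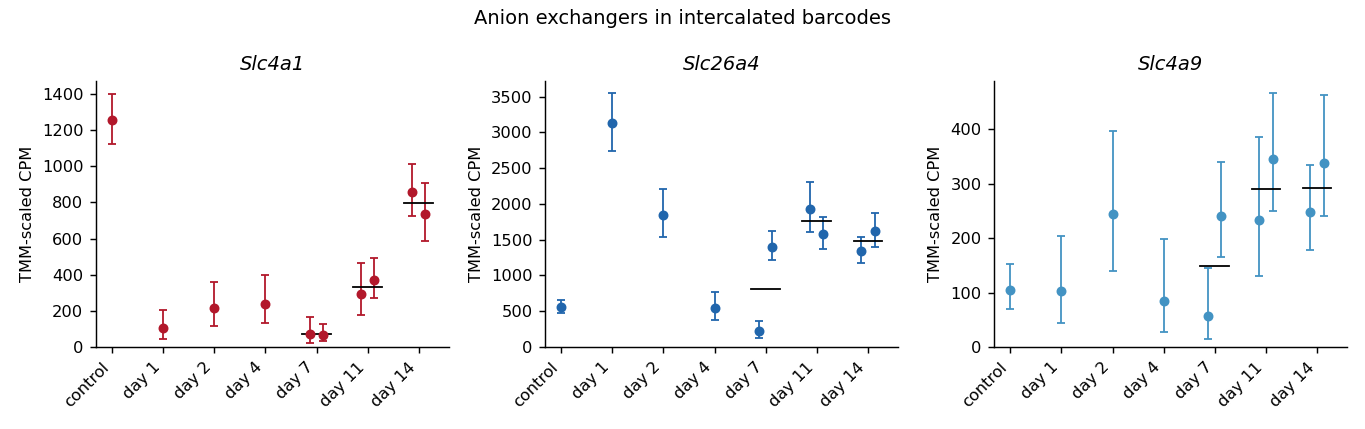
Level of Slc4a1, Slc26a4 and Slc4a9 in intercalated barcodes (TMM-scaled CPM) by library, ordered by day after injury. Points are libraries, bars are 95% Poisson intervals and black lines are the means of the 2 libraries of a day. Slc4a1 is highest in the control (1258) and lowest on day 7 (70.7 and 67.5), while Slc26a4 is highest on day 1 (3127).

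The exchangers known from type B cells, Slc26a4 and Slc4a9, were higher on day 11. Slc26a4 stood at 563 CPM in intercalated barcodes of the control, 3127 on day 1, 1849 on day 2, 544 on day 4, 226 and 1403 on day 7, 1931 and 1584 on day 11, then 1349 and 1619 on day 14. Day 1, day 2, both day 11 and both day 14 libraries were above the control, and the 2 day 7 libraries lay on either side of it. Slc26a4 rose on day 11 by 1.65 ± 0.41 on the log2 scale (adjusted p = 0.0096, n = 2 and 1). Slc4a9, at 104.8 CPM in the control and 234 and 346 on day 11, rose by 1.54 ± 0.44 (adjusted p = 0.026). With Slc4a1 these made 3 of 10 members called on day 11, where 5.34% of 3280 genes were. DESeq2 called none of the 3 on day 11, and 2 genes in all. Without replicate 2 of day 11 Slc4a9 no longer passed (1.18, adjusted p = 0.33). Slc26a4 did not pass with other lists under 10 UMIs (1.03, adjusted p = 0.060) or in Aqp6-positive barcodes (0.78, adjusted p = 0.73). With Spink8 left out of the choice neither passed (adjusted p = 0.064 for Slc26a4 and 0.080 for Slc4a9), and Slc4a9 did not without the low-count filter (adjusted p = 0.11) or with mixed barcodes kept (adjusted p = 0.053). With the replicate number as a block the adjusted p was 0.073 for Slc26a4 and 0.26 for Slc4a9. In barcodes with at most 25% mitochondrial UMIs neither passed, with 1.10 for Slc26a4 (adjusted p = 0.29) and 0.56 for Slc4a9 (adjusted p = 0.64).

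On day 14 no member passed against the control, where 1.07% of genes did. At an unadjusted p under 0.05 there were 4 of 10 members and 337 of 3280 genes, and DESeq2 called 0 members. The nearest were Slc26a4, at 1.41 ± 0.41 (adjusted p = 0.077), and Slc4a9, at 1.46 ± 0.43 (adjusted p = 0.079). Slc26a4 passed under 8 alternatives, among them total UMIs without TMM (1.61, adjusted p = 0.038) and the 2 groups alone (1.40, adjusted p = 2.3e-10), and without either library of day 7, either of day 11 or replicate 1 of day 14. Slc4a9 passed under 5, among them total UMIs (1.67, adjusted p = 0.041) and the 2 groups alone (1.45, adjusted p = 0.0014). In Aqp6-positive barcodes Slc26a4 stood at -3.49 (adjusted p = 0.29), of the other sign, a value near the floor. Only 2 of those barcodes held it in the control, and 1 and 0 in the day 14 libraries. On day 7 Slc26a4 stood at 0.74 ± 0.41 (adjusted p = 0.32), a comparison whose replicates held 16 and 187 UMIs of it. Without replicate 1 of day 7 it was 1.44 (adjusted p = 1.4e-04), and without replicate 2 it was -1.12 (adjusted p = 0.11), of the other sign.

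Slc4a1 and Slc26a4 were seldom detected in the same barcode, while Slc4a9 was detected with either. Over all 535 intercalated barcodes, Slc4a1 had a UMI in 196, Slc26a4 in 196 and both in 8. Slc26a4 and Slc4a9 shared 79 barcodes and Slc4a1 and Slc4a9 shared 50, of 139 with Slc4a9. The 50 of 139 is close to the share of Slc4a1 over all 535 barcodes. In the control the order was the other way, since of 18 barcodes with Slc4a9 12 held Slc4a1 and 5 held Slc26a4. Replicate 1 of day 7 had 1 of each, and the other libraries had the pooled order. Of 257 barcodes with Aqp6, 178 held Slc4a1 and 9 held Slc26a4. Of 105 with Insrr, a receptor gene known from type B cells, 92 held Slc26a4 and 10 held Slc4a1. Aqp6 and Insrr helped choose the barcodes, so these counts describe the chosen barcodes. None of the 3 exchangers was seen in 11 of 99 barcodes of the control, 29 of 36 and 29 of 61 on day 7, and 4 of 76 and 6 of 54 on day 14. Depth differed between these libraries (median 3249 UMIs in the control, 1247.5 and 1561 on day 7).

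Intercalated barcodes without Aqp6 held Slc26a4 at the higher levels. There it stood at 3087 CPM in the control (24 barcodes), 4568 on day 1, 550.0 and 1760 on day 7, 2704 and 2615 on day 11, then 4510 and 3616 on day 14. In Aqp6-positive barcodes it stood at 0 to 410 CPM. Within these Aqp6-negative barcodes the day 11 libraries did not stand above the control, and no test was made there.

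**Figure D3:**
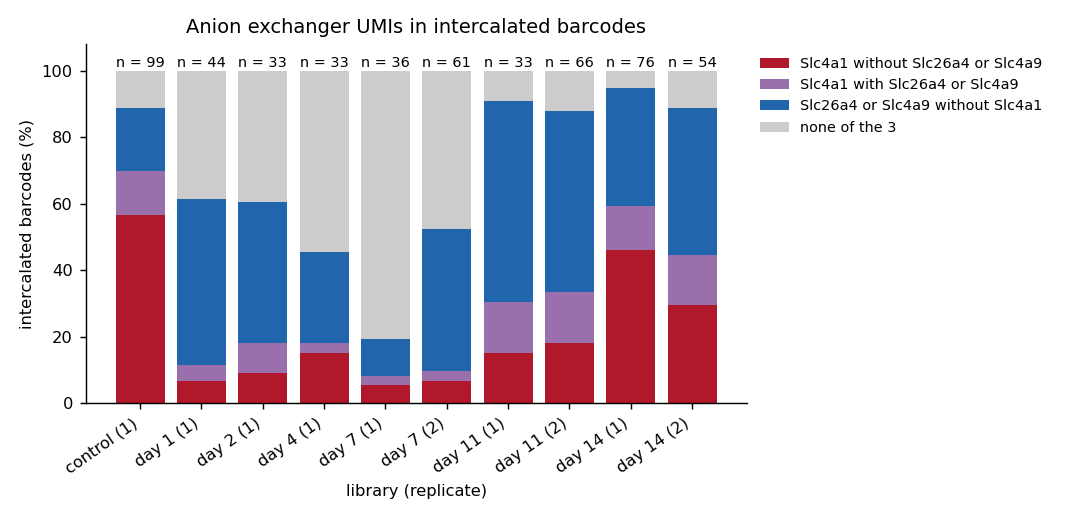
Share of intercalated barcodes of each library (bars, in percent) with a UMI of Slc4a1 alone, of Slc26a4 or Slc4a9 alone, of both sides, or of none of the 3 genes. The share with Slc4a1 alone is 56.6% in the control, 5.56% and 6.56% on day 7 and 46.1% and 29.6% on day 14. Shares are not thinned to 1 depth.

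None of the 3 pump subunits passed against the control on day 7, 11 or 14. Atp6v1g3, a stalk subunit found mainly in the kidney, stood at 8639 CPM in intercalated barcodes of the control, 10840.5, 9247 and 6935 on days 1, 2 and 4, 6308 and 6830 on day 7, 11292 and 9678 on day 11, then 10542 and 10978 on day 14. On the TMM scale both day 7 libraries were below all others, with a log2 change against the control of -0.29 ± 0.36 (adjusted p = 0.74) that did not pass. In CPM of total UMIs the control was instead the lowest library, at 6617. Atp6v1b1, a subunit of the ATP-splitting part whose loss causes renal tubular acidosis in people, stood at 617 CPM in the control, 198 and 465 on day 7, 841 and 1069 on day 11, then 648 and 468 on day 14. None of its changes passed, with -0.68 ± 0.32 on day 7 (adjusted p = 0.22) and 0.67 ± 0.31 on day 11 (adjusted p = 0.19). The day 7 change was -1.45 without replicate 2 of day 7 and -0.28 without its replicate 1, and without replicate 2 the change from day 7 to day 14 passed (1.42, adjusted p = 0.043).

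Atp6v0d2, a subunit of the membrane part of the pump, stood at 1208 CPM in the control, 995, 459 and 646 on days 1, 2 and 4, 820.4 and 931 on day 7, 717 and 965 on day 11, then 1631 and 1628 on day 14. The day 14 libraries were above all others. It rose from day 7 to day 14 by 0.79 ± 0.25 (adjusted p = 0.025), and with Slc4a1 it made 2 of 10 members called there, where 11.4% of genes were. This call rested on the settings: without replicate 1 or replicate 2 of day 14 the adjusted p was 0.19 and 0.14, by DESeq2 it was 0.49, and on total UMIs the change was 0.30 (adjusted p = 0.45).

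**Figure D4:**
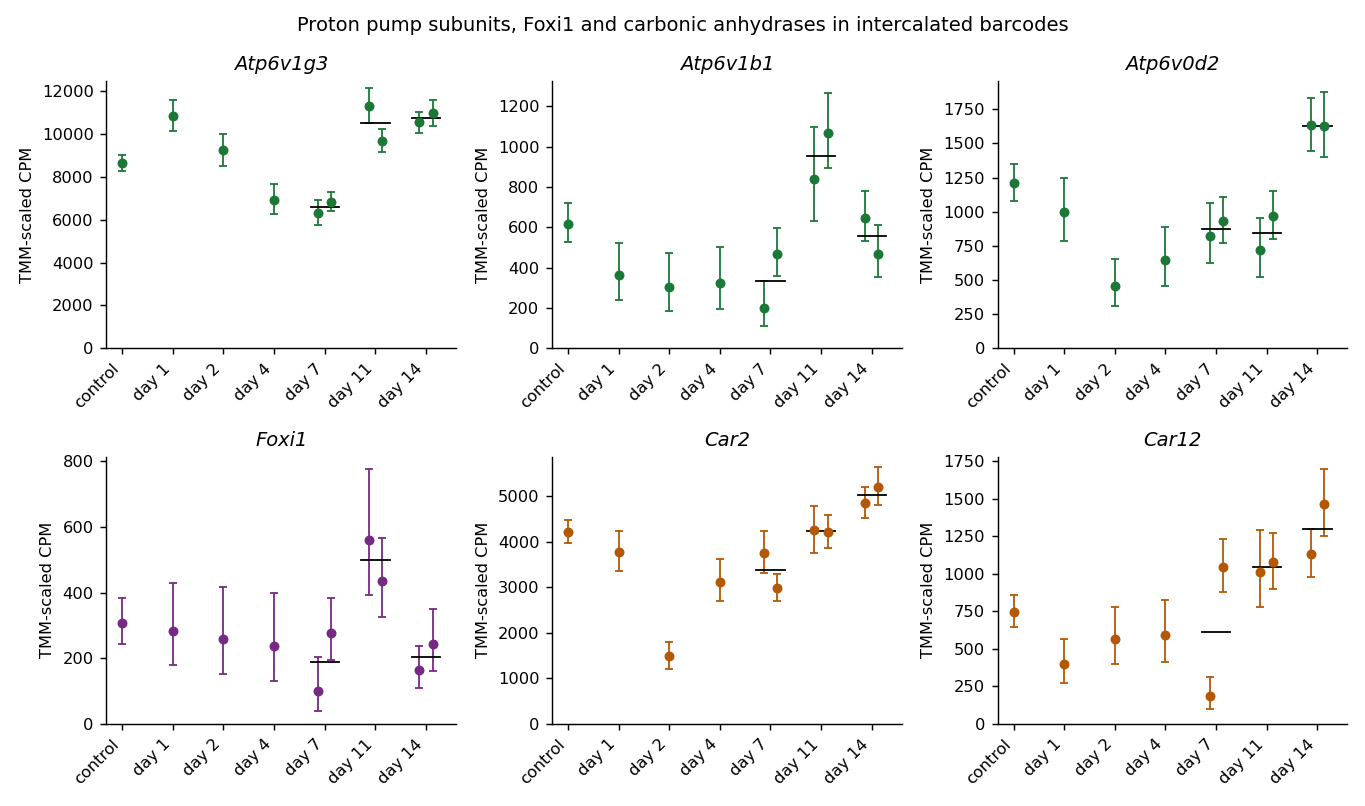
Level of the 3 pump subunits, Foxi1, Car2 and Car12 in intercalated barcodes (TMM-scaled CPM) by library and day, with 95% Poisson intervals and the means of the 2 libraries of a day as black lines. Atp6v0d2 is highest on day 14 (1631 and 1628), and the 2 day 7 libraries differ for Car12 (184 and 1043) and Foxi1 (99.0 and 278).

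Foxi1 itself stood at 307 CPM in intercalated barcodes of the control (79 UMIs), 284, 259.8 and 238 on days 1, 2 and 4, 99.0 and 278 on day 7, 561 and 434 on day 11, then 165 and 242 on day 14. On the TMM scale day 11 was above all other libraries, and days 7 and 14 were below the control. On total UMIs every day 7 change is higher by 0.71. The changes against the control were -0.45 ± 0.37 on day 7 (adjusted p = 0.57), 0.69 ± 0.34 on day 11 (adjusted p = 0.25) and -0.61 ± 0.35 on day 14 (adjusted p = 0.60), and none passed. On days 1, 2 and 4, with 1 library each, its Poisson intervals were wide (178 to 430, 151 to 416 and 130 to 399 CPM).

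The carbonic anhydrases in intercalated barcodes did not pass in any comparison between days, but this depended on the libraries for both and on other settings for Car12. Car2 stood at 4221 CPM in the control, 3786, 1483 and 3128 on days 1, 2 and 4, 3748 and 2995 on day 7, 4252 and 4220.2 on day 11, then 4853 and 5212 on day 14. Its day 2 level was the lowest of the 10 libraries (Poisson interval 1202 to 1809). From day 7 to day 14 Car2 stood at 0.49 (adjusted p = 0.27), and it passed without replicate 1 of day 7 (0.68, adjusted p = 0.037). Car12 stood at 749 CPM in the control, 400.5, 566 and 595 on days 1, 2 and 4, 184 and 1043 on day 7, 1012 and 1077 on day 11, then 1131 and 1463 on day 14. Replicate 1 of day 7 was the lowest of the 10 libraries, and replicate 2 lay between the 2 day 11 levels. The Car12 change from day 7 to day 14 was 0.86 ± 0.31 (adjusted p = 0.065). It passed with other lists under 10 UMIs (1.01, adjusted p = 0.0053) and with the replicate number as a block (1.04, adjusted p = 0.017). It also passed without replicate 1 or 2 of day 11 (adjusted p = 0.011 and 0.0078) or replicate 1 of day 14 (adjusted p = 0.037). Without replicate 1 of day 7 it was 0.24 (adjusted p = 0.62), and without replicate 2 of day 7 it was 2.70 (adjusted p = 3.4e-04). Against the control, the day 7 change of Car12 passed without replicate 2 of day 7 (-1.83, adjusted p = 0.014), and that of day 14 passed with the 2 groups alone (0.79, adjusted p = 0.0021) and without replicate 1 of day 7 (0.84, adjusted p = 0.027).

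Car12 was also read in barcodes with and without Aqp6. In Aqp6-positive barcodes it stood at 689 CPM in the control, 24.0 and 148 on day 7, 495 and 510.0 on day 11, then 746 and 784 on day 14. The day 7 change in them was -2.89 ± 0.52 (adjusted p = 3.5e-04) and the rise to day 14 was 3.05 (adjusted p = 1.3e-04). In Aqp6-negative barcodes it stood at 1070 CPM in the control, 412 and 1270.5 on day 7 and 2037 and 2301 on day 14, without a test. The split was added after the data were seen.

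In proximal barcodes Car2 rose and later fell. It stood at 216 CPM in the control, 1249, 950.2 and 706 on days 1, 2 and 4, 1128 and 632 on day 7, 404 and 446 on day 11, then 269.6 and 365 on day 14. Every injured library was above the control, and day 1 was highest on the TMM scale. In CPM of total UMIs replicate 1 of day 7 was highest, at 1553, and the control was still the lowest. Car2 rose on day 7 by 2.02 ± 0.34 (adjusted p = 7.6e-04) and on day 11 by 0.98 ± 0.32 (adjusted p = 0.044), and on day 14 stood at 0.55 ± 0.31 (adjusted p = 0.27). From day 7 to day 14 it fell by 1.47 ± 0.26 on the log2 scale (adjusted p = 8.2e-04). Without replicate 1 or 2 of day 11 the day 11 change was 1.04 and 0.90, and no longer passed (adjusted p = 0.085 and 0.15). Of the 10 members 8 passed the low-count filter in proximal barcodes (not Slc4a1 and Foxi1). Of those, 2 were called on day 7, 1 on day 11 and 1 on day 14, where 33.5%, 24.4% and 10.9% of 14045 genes were, and 3 between days 7 and 14, where 34.4% were.

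The change of Car2 on day 7 differed between the 2 classes. In a model with the library as a block, the intercalated change minus the proximal change was -2.39 ± 0.30 on the log2 scale (adjusted p = 3.9e-13), the only one that passed of the 8 members that passed the filter in each class, where 3.28% of 10669 genes did. On day 11 it was -1.02 (adjusted p = 0.076, background 0.459%) and on day 14 -0.25 (adjusted p = 1.0, background 0.234%).

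Detection and neighbouring classes give the setting of the proximal Car2 level. Thinned to 1000 UMIs, Car2 was seen in 17.8% of proximal barcodes of the control, 70.1%, 57.6% and 51.6% on days 1, 2 and 4, 64.7% and 44.0% on day 7, 24.5% and 26.3% on day 11, then 21.1% and 26.3% on day 14. In endothelial barcodes of the same libraries it was seen in 4.58%, then 23.0%, 14.2% and 13.9%, then 6% and 6.83%, 4.76% and 3.23%, and 9.88% and 3.51%. Thick limb barcodes held Car2 at 378 CPM in the control, 1496 on day 1, 936.5 on day 2, 997 on day 4, and 694 and 530.0 on day 7. Principal cell markers summed to 77.2 CPM in proximal barcodes of the control and to 77.2 to 209 CPM after injury, highest on day 2, and the 18 proximal markers to 22617 CPM in the control, 10154, 23896 and 15762 on days 1, 2 and 4, 11604 and 11391 on day 7, and 26417 to 28777 in the 4 later libraries. The erythroid markers summed to 20.4 CPM in the control. They summed to 705, 35.4 and 211 CPM in the libraries of days 1, 2 and 4, to 668 and 21.3 in those of day 7, to 2778 and 1399 in those of day 11, and to 157 and 96.4 in those of day 14. The median mitochondrial share was 23.2% in the control and 5.18% and 7.34% on day 7. The part of these in the Car2 result was not tested.

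Car12 in proximal barcodes stood at 78.0 CPM in the control, 74.6, 273 and 82.98 on days 1, 2 and 4, 82.3 and 47.1 on day 7, 95.8 and 91.6 on day 11, then 167 and 209 on day 14. Day 2 and both day 14 libraries stood above all others. Car12 rose on day 14 by 1.27 ± 0.29 against the control (adjusted p = 0.018) and by 1.60 ± 0.25 against day 7 (adjusted p = 3.3e-04). Without replicate 2 of day 14 the change against the control was 1.10 (adjusted p = 0.097). Thinned, it was seen in 6.88% of control and 13.9% and 15.8% of day 14 proximal barcodes, and in 1.31%, 3.70% and 1.75% of the endothelial ones.

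Slc4a4, the exit path of bicarbonate from proximal cells, stood at 1323 CPM in proximal barcodes of the control, 1016, 1396 and 655 on days 1, 2 and 4, 945 and 605 on day 7, 924 and 717 on day 11, then 1130 and 1241 on day 14. Levels of days 4, 7 and 11 were below the control and below day 14. It fell on day 7 by 0.78 ± 0.27 on the log2 scale (adjusted p = 0.040) and rose from day 7 to day 14 by 0.62 ± 0.22 (adjusted p = 0.049), but on total UMIs without TMM these changes were 0.10 (adjusted p = 0.79) and -0.07 (adjusted p = 0.81), of the other sign, since that scale adds 0.87 and -0.69 to every gene. On non-mitochondrial UMIs they were -0.22 (adjusted p = 0.55) and 0.14 (adjusted p = 0.65), and without replicate 2 of day 7 they were -0.48 (adjusted p = 0.18) and 0.32 (adjusted p = 0.31). Both calls were also lost by DESeq2 (adjusted p = 0.053 and 0.085), with the 2 groups alone (0.092 and 0.11) and without replicate 1 (0.052 and 0.099) or replicate 2 of day 14 (0.051 and 0.18). The rise was lost as well with DESeq2's size factors (0.069), at most 25% mitochondrial UMIs (0.077) and without either library of day 11 (0.055 each). On day 11 the change was -0.69 ± 0.26 (adjusted p = 0.077), and it passed without the low-count filter (-0.75, adjusted p = 0.0056), with the 2 groups alone (-0.75, adjusted p = 0.027) and without replicate 1 or 2 of day 7 (adjusted p = 0.026 and 0.027). Thinned, Slc4a4 was seen in 59.7% of control proximal barcodes, 73.6% and 55.4% on day 7, 47.8% and 41.5% on day 11, then 57.0% and 62.4% on day 14. In intercalated barcodes it had 1 to 11 UMIs per library, and none of its changes passed, except from day 7 to day 14 with mixed barcodes kept (1.54, adjusted p = 0.037).

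**Figure D5:**
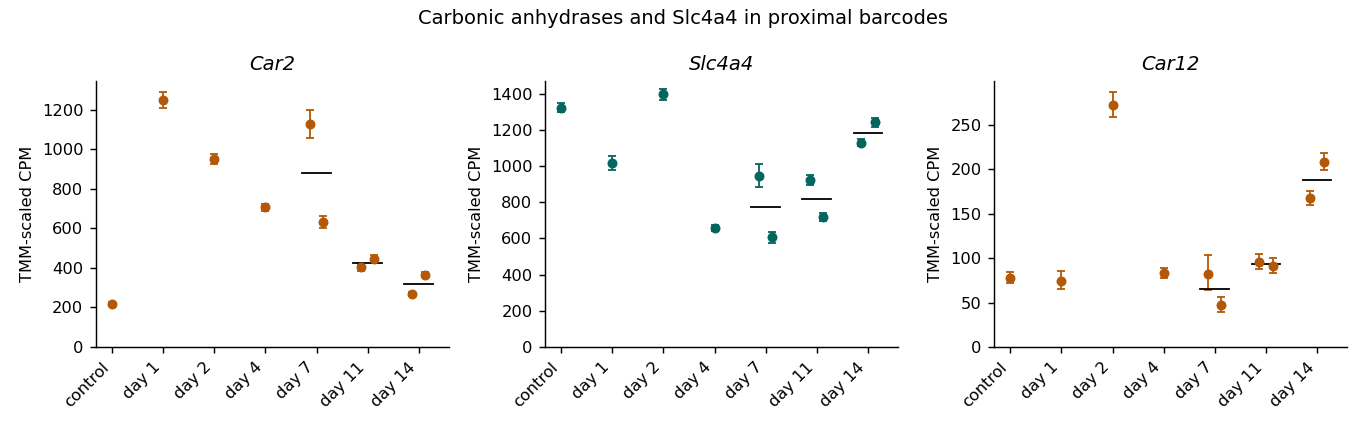
Level of Car2, Slc4a4 and Car12 in proximal barcodes (TMM-scaled CPM) by library and day, with 95% Poisson intervals and the means of the 2 libraries of a day as black lines. Car2 is 216 in the control and 1249 on day 1, Slc4a4 lies between 605 and 945 on days 4, 7 and 11 and at 1323 in the control, and Car12 is highest on day 2 (273).

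Other genes of the pathway were read from lists of the remaining pump subunits, exchangers and channels, carbonic anhydrases and ammonia genes. In intercalated barcodes 16 of 19 other pump genes were tested. On day 7, 4 were lower and none higher (5.37% of all genes were lower), with a median log2 change of -0.68 against -0.02 over all genes, and DESeq2 called 0. On total UMIs without TMM, which raise every gene alike, 1 was higher and none lower, and the median was 0.01 against 0.67 over all genes. Atp6v0c, of the membrane ring, stood at 2287 CPM in the control, 439 and 1006 on day 7 and 2179 and 2242 on day 14. It fell on day 7 by 1.49 ± 0.32 (adjusted p = 8.4e-04), and Atp6v1c2, a stalk subunit, by 1.39 ± 0.34 (adjusted p = 0.0043). With Spink8 left out of the choice neither passed (adjusted p = 0.071 and 0.096), and Atp6v1c2 did not without replicate 1 of day 7 (adjusted p = 0.053). From day 7 to day 14, 10 of the 16 were higher and none lower (median 0.97 against -0.05, with 7.62% of all genes higher), 2 on total UMIs without TMM (median 0.48 against -0.53) and 2 by DESeq2. On day 11 1 was higher, Atp6v0e (1.29 ± 0.30, adjusted p = 0.0055), where 5.34% of all genes were called, and on day 14 none passed against the control. The Atp6v0e call was lost by DESeq2 (adjusted p = 1), without the low-count filter (adjusted p = 0.096), with at most 25% mitochondrial UMIs (adjusted p = 0.11) and in Aqp6-positive barcodes (adjusted p = 0.096).

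Of 21 other exchanger and channel genes 4 were tested in intercalated barcodes. On day 7, 1 was higher and 1 lower (8.6% of all genes were called), and DESeq2 called 0. On day 7 Bsnd, the beta subunit of the basolateral chloride channels, fell by 3.47 ± 0.57 (adjusted p = 1.6e-05), from 245 CPM in the control to 14.1 and 22.5, and by DESeq2 the change was -3.46 (adjusted p = 0.30). It was at 230 and 173 CPM on day 14, and rose from day 7 by 3.23 ± 0.56 (adjusted p = 4.2e-05), where DESeq2 called none of the 4. Kcnj16, a potassium channel gene of other tubule segments, rose on day 7 by 3.18 ± 0.84 (adjusted p = 0.0087), from 11.6 CPM to 156 and 75.0, as the principal and distal markers of these barcodes stood higher too (distal list 208 CPM in the control, 724 and 538 on day 7). Their part in it was not tested. The Kcnj16 call was lost with at most 25% mitochondrial UMIs (adjusted p = 0.29), the higher minimums (adjusted p = 0.17), Spink8 left out (adjusted p = 0.14), the 2 groups alone (adjusted p = 0.11) and without replicate 1 of day 7 (adjusted p = 0.072). Of 7 ammonia genes 4 were tested, and the ammonia channel gene Rhcg fell on day 7 by 1.23 ± 0.36 (adjusted p = 0.020). That call was lost under 10 alternatives, among them DESeq2 (adjusted p = 0.999), total UMIs without TMM (-0.53, adjusted p = 0.36) and leaving out replicate 2 of day 7 (-0.70, adjusted p = 0.34). None of the 9 other carbonic anhydrase genes was tested in intercalated barcodes.

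In proximal barcodes all 19 other pump genes were tested. On day 7, 6 were lower and none higher (median -0.34 against 0.02, with 17.2% of all genes lower), and on total UMIs without TMM 8 were higher and 1 lower (median 0.52 against 0.88 over all genes). The list's median was below that of all genes on both scales, while the direction of its calls followed the scale. Atp6v1a, the catalytic subunit, fell by 1.40 ± 0.22 (adjusted p = 4.0e-04), from 980.3 CPM to 399 and 345, and was lower on total UMIs too, without passing. On days 11 and 14, 2 and 1 were higher and 1 and 0 lower, where 24.4% and 10.9% of all genes were called. Between days 7 and 14, 9 were higher and none lower, where 17.3% of all genes were higher, against 1 higher and 6 lower on total UMIs. The median was 0.60 against -0.01 over all genes, and -0.09 against -0.69 on total UMIs.

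The other proximal lists held larger single changes. Of 6 carbonic anhydrase genes tested, Car4, the membrane-bound enzyme of the proximal brush border, fell on day 7 by 2.60 ± 0.23 (adjusted p = 9.4e-06), from 342 CPM to 48.5 and 61.8, and was at 258 and 328 CPM on day 14. Car13 rose by 4.78 ± 0.55 from 0.778 CPM (7 UMIs) to 18.04 and 24.2. On day 14, 4 of the 6 were higher and none lower (median 1.70 against 0.03, with 4.97% of all genes higher), among them Car3, from 4.00 to 32.6 and 79.4 CPM, and by DESeq2 2 were. Of 7 ammonia genes, 4 were lower and 1 higher on day 7 (median -1.004 against 0.02, with 33.5% of all genes called and 17.2% lower), and on total UMIs 1 was lower and 2 higher (median -0.14 against 0.88). Pck1, an enzyme that links ammonia production to glucose production, fell by 2.96 ± 0.30 (adjusted p = 2.3e-05), from 1344 CPM to 110.5 and 226, and stood at 1501 and 1579 CPM on day 14. Of 18 exchanger genes tested, 3 were higher and 4 lower on day 7, where 33.5% of all genes were called, and 5 and 1 on total UMIs. The median was -0.655 against 0.02 over all genes, and 0.21 against 0.88 on total UMIs. The called share was close to the one over all genes. Slc4a11 rose by 5.40 ± 0.74 from 0.222 CPM (2 UMIs) to 7.89 and 11.5, and the potassium channel gene Kcnj15 fell by 1.74 ± 0.20.

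The genes most like Atp6v1g3 and Slc4a4 across libraries were taken by Pearson's r of log2(CPM + 1) over the 10 libraries, with no p. Over all used barcodes the 5 nearest to Atp6v1g3 among 6487 genes were Ppp3ca (0.97), Peli1 (0.97), Coro2a (0.96), Zfhx3 (0.96) and Vamp2 (0.96). In these sums r with Atp6v1g3 was 0.83 for Atp6v0d2, 0.72 for Slc26a4, 0.68 for Car2, 0.33 for Atp6v1b1, -0.24 for Car12 and -0.57 for Slc4a4. In proximal barcodes the 5 nearest to Slc4a4 among 5938 genes were Iqgap2 (0.96), Itpr2 (0.94), Cgnl1 (0.92), Itch (0.92) and Cmip (0.92). All points of a correlation share their libraries and depths, and sums over all barcodes also carry the share of each cell type.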

How the data were processed

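Counts per gene symbol and cell barcode were deposited by the authors, 1 table per library. They are whole numbers and were read as UMI counts, which the labels do not state. Per the labels' protocols, suspensions were run through Drop-seq, the cDNA was amplified by PCR and its 3' end was sequenced after a modified Nextera XT protocol. The submitters' processing notes name Bowtie2 2.2.7 and mm10. Annotation and counting options are not given in the sources used here. Strand use in the counting is not given either. Groups and days came from titles and time point labels.

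A barcode was used if it had 500 or more UMIs and 500 or more genes and no more than 50% of its UMIs were mitochondrial. Of the 10 fixed intercalated markers, Tmem213 and Rhbg were not used for the choice because other distal barcodes held them too. The minimums (2 and 15 UMIs) were set from marker counts without reading the members. Barcodes that passed both choices (1 to 8 per library) and those with 5 or more UMIs of another type's list were left out, which was also the treatment of doublets. Of the barcodes with at least 2 intercalated UMIs, those left out for another list ran from 46 of 120 (day 11, replicate 2) to 241 of 277 (day 4), with 191 of 293 in the control. For classes other than these, a list needed at least 10 UMIs and 3 times those of the other distal lists, or at least 5 UMIs for endothelial and macrophage barcodes. Thick limb, distal and principal barcodes had to hold under 2 intercalated and under 15 proximal UMIs. Endothelial and macrophage barcodes had to hold under 2 intercalated UMIs and under 5 of each of the proximal, thick limb, distal and principal lists.

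UMIs were summed per library and class and tested with edgeR 4.0.16 in R 4.3.3 (filterByExpr, TMM, quasi-likelihood F test, 1 term per group, 3 residual degrees of freedom, Benjamini-Hochberg over all genes tested, threshold 0.05). SE is the absolute log2 change divided by the square root of F. Poisson and binomial intervals are exact, at 95%, and cover counting error only. A level of 0 has an interval too, which reaches 93.7 CPM for Slc4a1 in macrophage barcodes of the control. edgeR's test was also run on simulated sums, in which the control varied like all other libraries. These sums therefore cannot check the assumption that the control library varies like the replicated days. DESeq2 1.42.0 and the other settings of the closing section were alternatives. Named genes were all 10 members, and from each pathway list up to 2 called changes per direction. The members and lists were chosen with earlier results of these data known. Replicate numbers did not pair the libraries (correlations of deviations -0.026 to 0.039). No sequence or position is given for Slc4a9.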

Additional observations from a re-analysis of the deposited data

Results flagged for a closer look

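Car2 changed differently in the 2 classes on day 7. The intercalated change against the control minus the proximal change was -2.39 on the log2 scale (SE 0.30, adjusted p = 3.9e-13, edgeR, library as block, 3.28% of 10669 genes called). Intercalated levels were 4221 CPM in the control and 3748 and 2995 on day 7, and proximal levels were 216 in the control and 1128 and 632 on day 7. The difference ran from -2.72 to -1.93 over 14 alternatives and passed in each.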

How the results depend on the processing

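Slc4a1 on day 7 and from day 7 to day 14 in intercalated barcodes, Car2 on day 7 and Car2 and Car12 from day 7 to day 14 in proximal barcodes, and the 8 intercalated against proximal differences given kept their direction and call under every alternative run. Over the 24 called changes of members, 367 of 416 values kept direction and call, 47 kept direction alone and 2 reversed. Of the 24, 10 are intercalated against proximal differences, 2 of them Slc4a1 and Foxi1, for which no difference is given above. The filter largely set most of these 10 calls. They raise the share kept, which therefore does not measure how firm the changes between days are. Of the 47, 14 came from leaving out 1 library (144 values). Of 1033 values of 59 changes that were not called, 42 became called, all in the same direction, and 75 had the other sign without a call. The 2 reversals were Slc4a4 in proximal barcodes on total UMIs without TMM, 0.0957 for day 7 against control and -0.0712 for day 14 against day 7, since that scale adds 0.87 and -0.69 to every gene's change.

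Counts of genes called in intercalated barcodes moved more. For day 7 against control (282) they were 27 by DESeq2, 90 with at most 25% mitochondrial UMIs, 179 with the higher minimums, 129 without Spink8, 98 in barcodes with Aqp6 and 172 with the 2 groups alone. For day 11 (175) they were 111 without the low-count filter, 2 by DESeq2, 73 at 25%, 278 with other lists under 10 UMIs, 84 without Spink8, 34 with Aqp6, 290 with the 2 groups alone and 93 with the replicate block. For day 14 (35) they were 2 by DESeq2, 18 at 25%, 53 with mixed barcodes kept, 9 without Spink8, 19 with Aqp6, 162 with the 2 groups alone and 20 with the replicate block. For day 14 against day 7 (373) they were 58, 240 and 189 by DESeq2, at 25% and with Aqp6. In proximal barcodes day 14 (1531) gave 924 by DESeq2 and 2954 with the 2 groups alone, and intercalated against proximal (2472) gave 4922 without the filter. The cause was not tested.

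Leaving out 1 library gave 158 to 318 calls for day 7, 69 to 310 for day 11, 10 to 77 for day 14 and 187 to 416 for day 14 against day 7 in intercalated barcodes. In proximal barcodes it gave 3290 to 4632, 1384 to 4219, 421 to 2384 and 3300 to 4510, and 2215 to 3211 between the classes. In intercalated barcodes counts moved by over 1.5 times without replicate 2 of day 7 (158 on day 7, 23 on day 14, 239 for day 14 against day 7) and without its replicate 1 (310 on day 11, 77 on day 14). They did so without replicate 2 of day 11 (69 on day 11) and of day 14 (10 on day 14), and without replicate 1 of day 14 (187 for day 14 against day 7). In proximal barcodes they did so on day 11 without either of its replicates (2256 and 1384), and on day 14 without either of its own (798 and 421) or of day 7 (2384 and 2379).

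With the replicate number as a block, Slc26a4 (1.36, adjusted p = 0.073) and Slc4a9 (1.03, adjusted p = 0.26) on day 11 and proximal Slc4a4 on day 7 (-0.65, adjusted p = 0.074) no longer passed. The labels share only a number, and same-numbered libraries did not deviate together. Total UMIs, non-mitochondrial UMIs, other lists under 10 UMIs, Spink8 left out, Aqp6 alone and the difference between classes were chosen after seeing the data. Intercalated barcodes were also chosen with the other members added and the minimum raised to 4 UMIs. This moved 10 of 70 levels by more than their replicate spread or interval. Slc4a1 then stood at 1254 CPM (TMM-scaled) in the control and at 56.6 and 51.0 on day 7. Depth limits the intercalated sums, at 49599 to 336259 UMIs per library.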

Other observations

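Atp6v0d2 was also seen in macrophage barcodes, whose lysosomes are acidified by proton pumps. There it stood at 0 CPM in the control (29 barcodes), 0 on day 1 and 4.56 on day 2. On day 4 it stood at 80.2 CPM with a UMI in 23 of 326 barcodes, and on day 7 at 269 and 124 CPM with a UMI in 118 of 694 and 120 of 1218 barcodes. Afterwards it was seen in at most 1 barcode of a library. Atp6v1g3, which marks intercalated RNA, stood in the same macrophage barcodes at 34.2 CPM on day 4 and 43.9 and 34.7 CPM on day 7, and at 0 to 77.0 over all libraries. Endothelial barcodes of the same libraries held Atp6v0d2 at 0 to 31.0 CPM. This pattern was chosen after its values were seen and has no test.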
